A study of Danio rerio with 12 samples.

Results

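Dual specificity phosphatases of the dusp family were measured on 12 one-colour Affymetrix zebrafish arrays of whole brain. Members were all probe sets to which the platform annotation gives 1 gene symbol made of dusp and a number. There were 12 of them, for 10 genes, among 15502 probe sets and 8793 genes with a single symbol. The RefSeq gene table of assembly GRCz12tu lists 26 dusp genes, and its identifiers matched all 12 probe sets under the same symbols. The remaining 16 genes, among them dusp8a, dusp8b, dusp10 and dusp26, were not analysed here. Of the 12 probe sets, 9 are for typical MAP kinase phosphatases (dusp1, dusp2, dusp4, dusp5, dusp6, dusp7 and dusp16). The other 3 are for dusp11, dusp22a and dusp23b, atypical members without the kinase binding domain, so the name MAP kinase phosphatase does not describe the whole set. All 12 had a mean level above the dimmest 25% of probe sets, although dusp4 and dusp16 lay close to that limit, with means over the arrays of 5.05 and 5.12 on the log2 scale against a limit of 5.02.

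MAP kinases are switched on by phosphorylation of a threonine and a tyrosine in the same loop, and typical dusp proteins remove both phosphates. Several of their genes are transcribed within minutes of kinase activation, so that the enzyme made in response limits the signal that induced it. In neurons of mammals and birds, dusp1 and related genes are known to be induced by electrical and sensory activity, alongside Fos and Egr factors.

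The fish were adult AB wild types, with no transgene or mutation in any group, and all of them had spent 5 days alone beforehand. Isolated fish stayed alone, mirror fighters fought their reflection, and winners and losers had fought a real opponent. Brains were collected at the end of 30 min of manipulation, and each group had 3 arrays. No source used here states if an array carried RNA from a single brain or from several, nor the sex of the fish, so p-values measure only the spread between these samples.

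Array medians lay between 94.1 and 104 intensity units. Spiked bacterial hybridization controls, which carry no fish RNA, were brighter on all 6 winner and loser arrays (mean log2 9.99 to 10.76) than on the 6 isolated and mirror arrays (9.27 to 9.51). Poly-A controls, spiked into the RNA before labelling, separated the same arrays (6.62 to 6.86 against 6.01 to 6.45). These differences are part of every comparison of real fighters with isolated fish or mirror fighters, and their part in the results was not tested beyond the fit with the hybridization controls as a covariate. Neuronal markers were all well lit: 9 of the 15 listed were measured, none of them dim, with a summed intensity of 32553 to 41655 in isolated fish, 34437 to 38239 in mirror fighters, 41223 to 48167 in winners and 39814 to 41245 in losers. Their median difference from isolated fish was 0.22 in winners and 0.04 in losers, with 0 called, and its part in the results was not tested. Meningeal markers, 6 of 9 measured, had a summed intensity of 513 to 606 in isolated fish, 547 to 610 in mirror fighters, 386 to 441 in winners and 324 to 416 in losers, with medians of -0.49 and -0.52 in the last groups and 0 called. Endothelial markers, 5 of 9 measured, 2 of them dim, summed to 462 to 518, 521 to 604, 354 to 552 and 306 to 428 in the same order, with medians of -0.10 and -0.43. In losers 1 was called, fli1, named after its values were seen, where 0.258% of all probe sets were called higher and 0.31% lower. Winner and loser medians were -0.10 and -0.12 for radial glia and astroglia and -0.12 and -0.13 for oligodendrocytes. They were -0.20 and -0.34 for erythroid cells and 0.03 and -0.16 for pituitary markers, with 0 called in these lists. No marker was at the floor of the values, and the part of these markers was not tested either. In bulk tissue, fewer cells of a type and less RNA per cell cannot be told apart.

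The largest differences of the family were among the inducible nuclear phosphatases. In losers dusp5 and dusp2 rose 2.24-fold and 2.18-fold over isolated fish, and dusp1 had the same size of difference without passing the test. In winners the mean levels of these 3 genes lay between those of isolated fish and losers and none passed, and the mirror fighter differences from isolated fish were between -0.08 and 0.21. dusp4, the remaining gene of this class, was below its isolated level in losers, at -0.43, without passing, and that value was -0.041 without loser array 1. In the following, values are log2 intensities of the deposited signal, a difference is between group means with its standard error (SE) from limma, and called means a Benjamini-Hochberg adjusted p under 0.05 over all probe sets of the comparison.

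**Figure D1:**
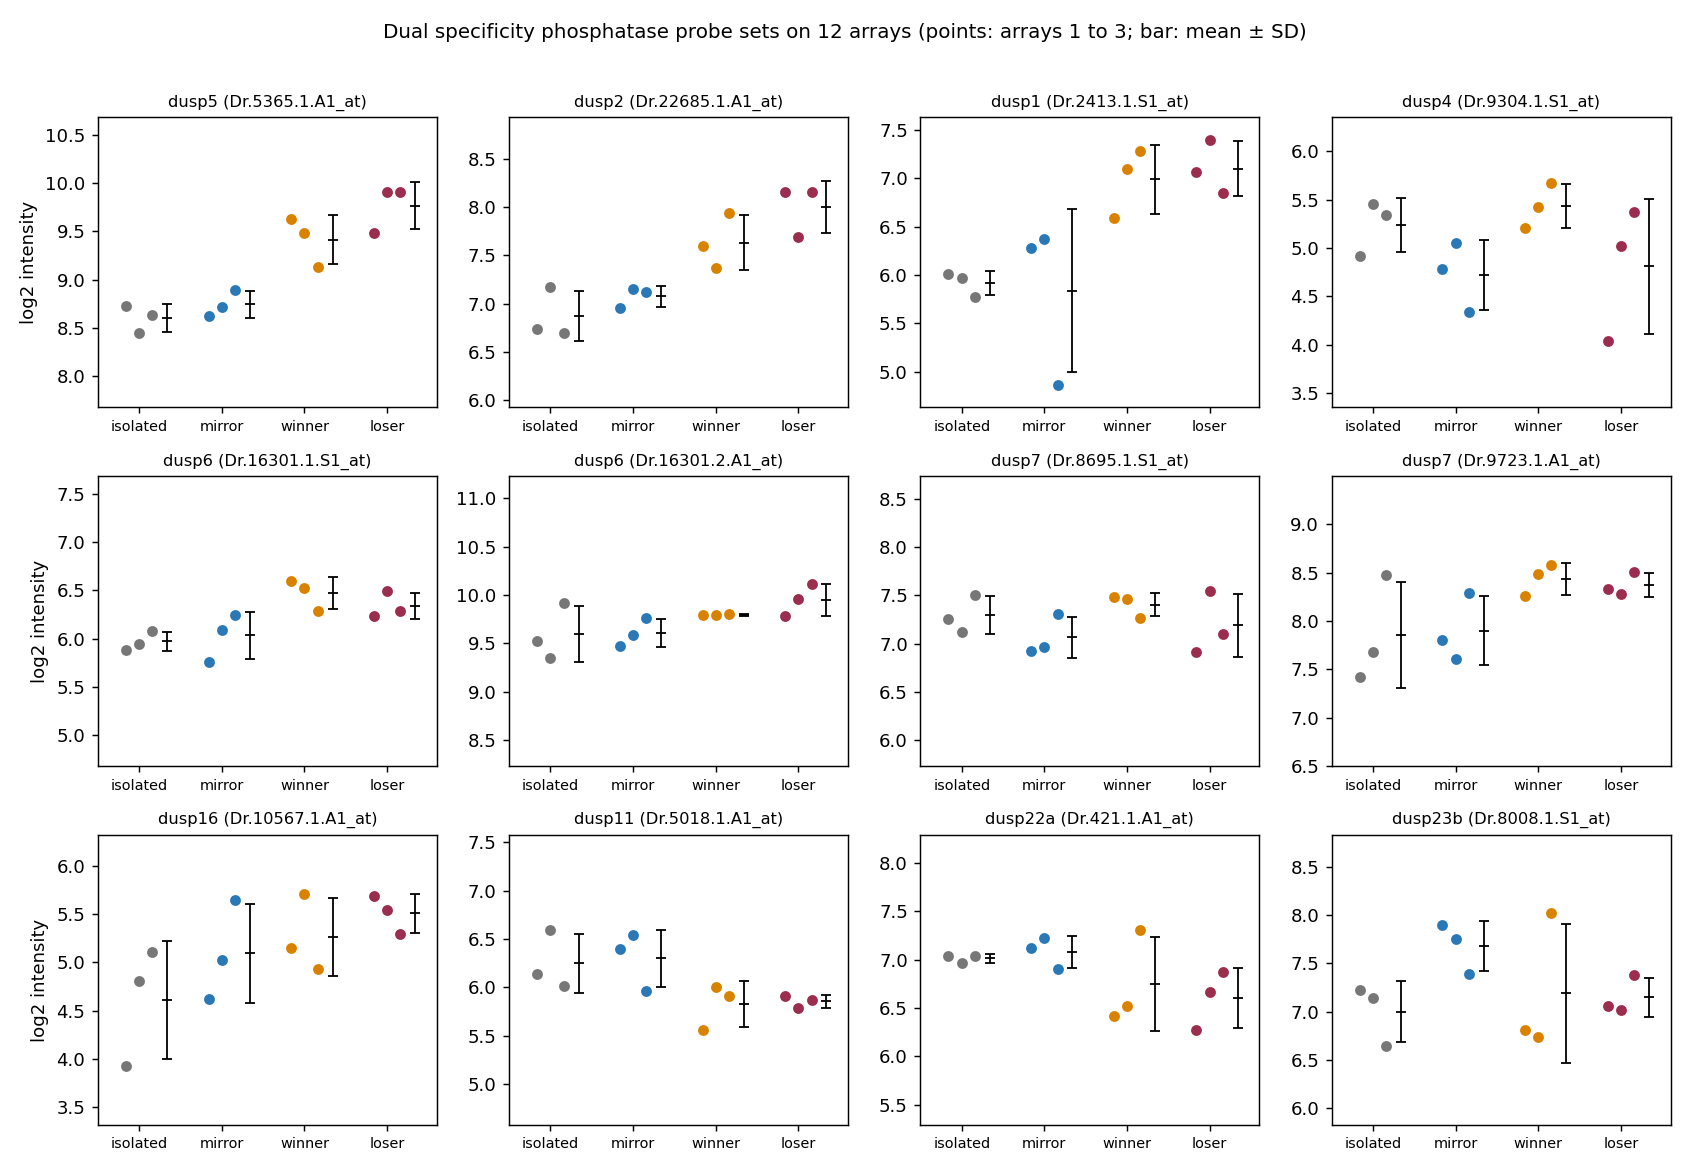
Log2 intensity (vertical axis, 3 units high in every panel) of the 12 dusp probe sets by group, with 1 point per array in the order of replicate 1 to 3 and a bar for the mean ± SD of 3 arrays. For dusp5 all winner and loser arrays, from 9.13 to 9.91, lie above all isolated and mirror arrays, from 8.45 to 8.89, and for dusp1 one mirror array lies at 4.86.

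dusp5 (NCBI gene 114436) encodes a nuclear phosphatase selective for the kinase ERK. It read 8.73, 8.45 and 8.63 on the isolated arrays and 8.62, 8.72 and 8.89 on the mirror arrays. It read 9.63, 9.48 and 9.13 on the winner arrays and 9.48, 9.90 and 9.91 on the loser arrays. No array of a real fighter overlapped with any array of the other groups, while winners and losers overlapped.

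Group means of dusp5 were 8.60 ± 0.14 (SD, n = 3) in isolated fish, 8.74 ± 0.14 in mirror fighters, 9.41 ± 0.26 in winners and 9.76 ± 0.24 in losers. The gene rose in losers over isolated fish by 1.16 ± 0.17 (SE, limma adjusted p = 0.0199). The winner value of 0.81 ± 0.17, or 1.76-fold, did not pass (limma adjusted p = 0.103), although all 3 winner arrays were above all isolated arrays. Taken over winners and losers together, dusp5 was higher by 0.99 ± 0.15 than in isolated fish (limma adjusted p = 0.0186). It was higher by 0.85 ± 0.15 than in mirror fighters (limma adjusted p = 0.0484). In these comparisons 0.568% and 0.252% of all probe sets were called higher. The call against mirror fighters was lost in 16 of 22 alternative settings, and leaving out any array other than winner array 3 ended it. The call against isolated fish ended without isolated array 1 (adjusted p = 0.0754) or isolated array 2 (adjusted p = 0.114).

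dusp5 also passed the test for any difference among the 4 groups (limma F-test, adjusted p = 0.0419), where 43 probe sets, or 0.277% of all, were called and dusp5 was the 43rd by p. The mirror fighter difference from isolated fish was 0.14 ± 0.17, with a 95% interval from -0.24 to 0.53. Losers were above mirror fighters by 1.02 ± 0.17 (limma adjusted p = 0.0614) and winners by 0.67 ± 0.17 (limma adjusted p = 0.153), neither of which passed.

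dusp2 (NCBI gene 445057) encodes a nuclear phosphatase first known from activated lymphocytes of mammals. It read 6.74, 7.17 and 6.70 on the isolated arrays and 6.95, 7.16 and 7.12 on the mirror arrays. It read 7.59, 7.37 and 7.94 on the winner arrays and 8.15, 7.69 and 8.16 on the loser arrays. All 6 real-fight arrays lay above the other 6, and winners and losers overlapped.

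dusp2 rose in losers by 1.13 ± 0.20 over isolated fish (SE, n = 3, limma adjusted p = 0.0392). The winner value was 0.76 ± 0.20, or 1.69-fold, and did not pass (limma adjusted p = 0.121). Over winners and losers together dusp2 was higher by 0.94 ± 0.17 than in isolated fish (limma adjusted p = 0.0327), and the value of 0.74 ± 0.17 against mirror fighters did not pass (limma adjusted p = 0.0767). Mirror fighters differed from isolated fish by 0.21 ± 0.20, with an interval from -0.23 to 0.65. The call over both groups ended without isolated array 1 or 2, mirror array 1 or 2, winner array 1 or loser array 1, with an adjusted p of up to 0.155. The loser value against mirror fighters was 0.92 ± 0.20 (limma adjusted p = 0.101) and the winner value 0.56 ± 0.20 (limma adjusted p = 0.223).

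Because dusp2 is a gene of lymphocytes in mammals, the markers of leukocytes and microglia are given beside it. Of 19 listed markers 13 were measured, 1 of them dim and none at the floor of the values. The listed genes lck and il2rgb were not among them. The list covers leukocytes and microglia at large, so it does not measure lymphocytes alone. Its brightest genes, cd74a (551 to 4867) and apoeb (717 to 2653), weigh most in the sum. Their summed intensity was 4452 to 8705 in isolated fish, 5110 to 6646 in mirror fighters, 1701 to 5770 in winners and 3868 to 7691 in losers. Against isolated fish 12 of the 13 were below 0 in winners and 11 in losers, with medians of -1.16 and -0.35. In mirror fighters 11 were below 0 with a median of -0.53, and 0 were called in any group. Their part in the dusp2 values was not tested.

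dusp1 (NCBI gene 406340) encodes a nuclear phosphatase of p38, JNK and ERK, and in mammals it is induced by stress and by glucocorticoids as well as by neuronal activity. It read 6.01, 5.97 and 5.78 on the isolated arrays, 6.28, 6.37 and 4.86 on the mirror arrays, 6.59, 7.10 and 7.29 on the winner arrays and 7.06, 7.40 and 6.85 on the loser arrays. The real fighters again lay above all others, and mirror array 3 stood far below every other array.

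The dusp1 differences from isolated fish, 1.19 ± 0.36 in losers (2.28-fold, limma adjusted p = 0.118) and 1.08 ± 0.36 in winners (2.11-fold, limma adjusted p = 0.166), were as large as those of dusp5 and dusp2 but did not pass. The residual standard deviation of dusp1 was 0.48, at the 81.7th percentile of all probe sets, against 0.20 for dusp5 (27.8th percentile) and 0.24 for dusp2 (39.3rd percentile). Over winners and losers together dusp1 stood at 1.13 ± 0.31 against isolated fish (limma adjusted p = 0.0718). Without mirror array 3, which enters that estimate only through the shared spread, the same difference of 1.13 was called (limma adjusted p = 0.0307). It was also called with 32 added before log2 (0.0333), without the dimmest 25% of probe sets (0.0441) and with trend and robust moderation (0.0446). In 18 of 22 alternative settings it stayed uncalled, with a limma adjusted p of up to 0.527. The mirror fighter difference from isolated fish was -0.08 ± 0.36 with all arrays and 0.41 without mirror array 3. Against mirror fighters dusp1 stood at 1.26 ± 0.36 in losers, 1.15 ± 0.36 in winners and 1.21 ± 0.31 over both, none of them called (limma adjusted p = 0.152, 0.185 and 0.0896). Without mirror array 3 these values were 0.77, 0.66 and 0.72.

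dusp4 (NCBI gene 394146), a close relative of dusp1 that acts in the nucleus, read 4.92, 5.46 and 5.35 on the isolated arrays and 4.78, 5.05 and 4.33 on the mirror arrays. It read 5.21, 5.43 and 5.67 on the winner arrays and 4.03, 5.02 and 5.38 on the loser arrays. Losers were the most spread group, and loser array 1 was the lowest of the 12 arrays. Differences from isolated fish were 0.20 ± 0.32 in winners, -0.43 ± 0.32 in losers and -0.52 ± 0.32 in mirror fighters, none called (limma adjusted p = 0.762, 0.465 and 1.00). Winners stood above mirror fighters at every array, by 0.72 ± 0.32 (limma adjusted p = 0.295).

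The order of the group means was isolated, mirror, winner, loser for dusp5 and dusp2, and mirror, isolated, winner, loser for dusp1. Only the step up to winners separated neighbouring groups without overlap, and no step between neighbours passed the test. Winners differed from losers by -0.35 ± 0.17 for dusp5 (95% interval -0.74 to 0.04), by -0.37 ± 0.20 for dusp2 (-0.81 to 0.07) and by -0.11 ± 0.36 for dusp1 (-0.90 to 0.68). All 3 had a limma adjusted p of 1.00. For dusp4 the winner minus loser difference was 0.63 ± 0.32 (-0.09 to 1.34), and 0.24 without loser array 1. The labels do not state that winner and loser arrays of the same number were opponents. Within the 3 pairs taken by number, the loser was higher in 3 of 3 for dusp2, in 2 of 3 for dusp5 and dusp1, and in 0 of 3 for dusp4. With these pairs as a block 0 of the 12 were called, with an adjusted p of 0.947 for dusp2 and dusp4. Within the loser group the arrays were not ranked alike by these genes: array 1 was lowest for dusp5 and dusp4, array 2 was lowest for dusp2 and highest for dusp1, and array 3 was lowest for dusp1.

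**Figure D2:**
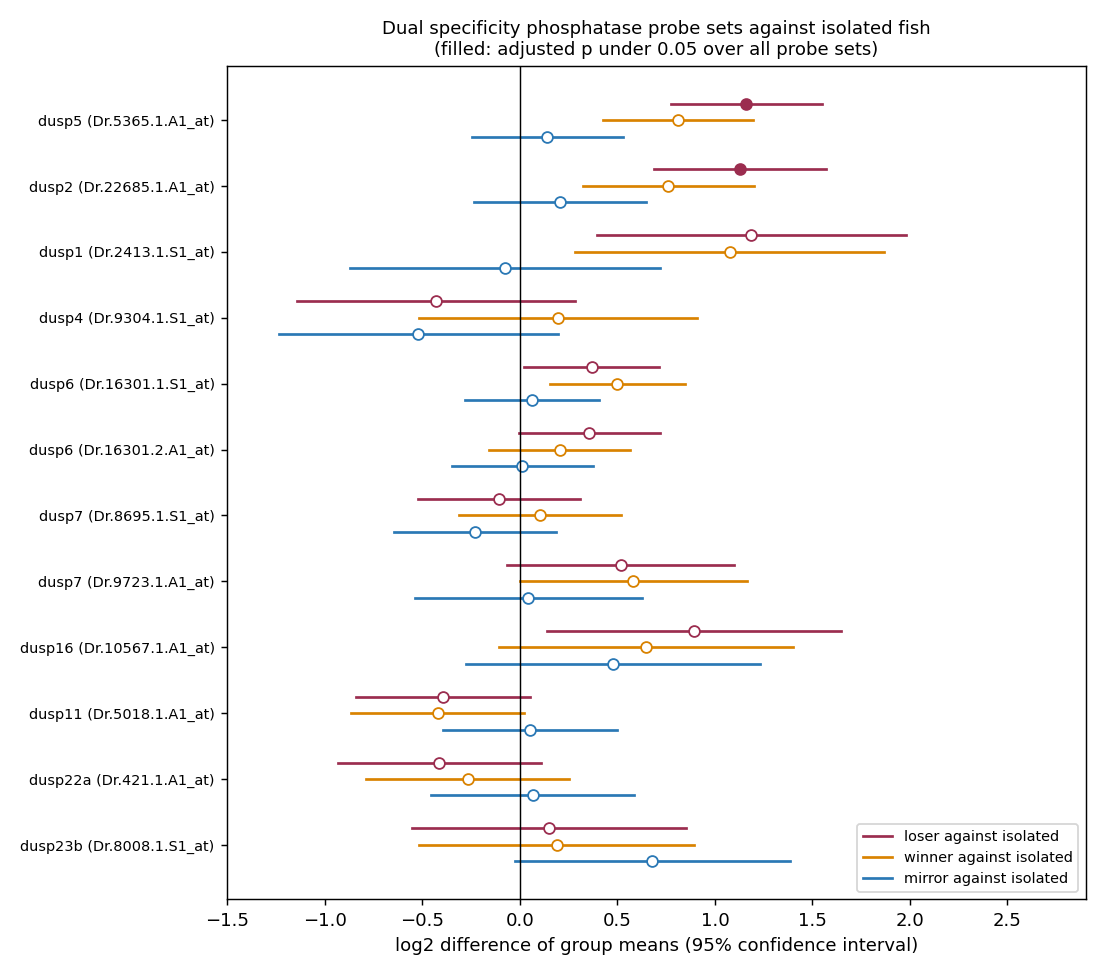
Log2 difference of group means from isolated fish (horizontal axis) for the 12 dusp probe sets (rows), with 95% confidence intervals from limma, in losers, winners and mirror fighters (3 arrays each), and filled points for adjusted p under 0.05. Filled points are the loser values of dusp5 and dusp2, at 1.16 and 1.13, and every mirror fighter interval includes 0.

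The cytoplasmic ERK phosphatases dusp6 and dusp7 were each measured by a pair of probe sets. dusp6 (NCBI gene 353314), a target and inhibitor of fibroblast growth factor signalling in the zebrafish embryo, had modest higher values in real fighters on both of its probe sets. The dimmer probe set read 5.89, 5.95 and 6.08 on the isolated arrays, 5.76, 6.09 and 6.25 on the mirror arrays, 6.60, 6.53 and 6.29 on the winner arrays and 6.24, 6.49 and 6.29 on the loser arrays. Winners and losers lay above isolated fish at every array, while mirror array 3 overlapped with losers. The differences from isolated fish were 0.50 ± 0.16 in winners and 0.37 ± 0.16 in losers (limma adjusted p = 0.152 and 0.21), and 0.43 ± 0.13 over both (limma adjusted p = 0.0916).

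The brighter dusp6 probe set read 9.52, 9.35 and 9.91 on the isolated arrays, 9.47, 9.59 and 9.76 on the mirror arrays, 9.79, 9.79 and 9.81 on the winner arrays and 9.78, 9.96 and 10.11 on the loser arrays. Isolated array 3 lay within the range of the real fighters. Its differences were 0.20 ± 0.16 in winners and 0.36 ± 0.16 in losers (limma adjusted p = 0.509 and 0.24). Neither dusp6 probe set passed, and both pointed upwards in both groups.

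The probe sets of dusp7 (NCBI gene 327246) did not point the same way in losers. The brighter one read 7.42, 7.68 and 8.47 on the isolated arrays, 7.80, 7.61 and 8.29 on the mirror arrays, 8.26, 8.48 and 8.58 on the winner arrays and 8.34, 8.28 and 8.51 on the loser arrays. Array 3 of the isolated and of the mirror group reached the level of the real fighters. The differences from isolated fish were 0.58 ± 0.26 in winners, 0.52 ± 0.26 in losers and 0.55 ± 0.23 over both (limma adjusted p = 0.256, 0.285 and 0.169). Without isolated array 3 the last value became 0.86 and was called (limma adjusted p = 0.0444). The dimmer one ranged from 6.92 to 7.55 over all arrays, and its differences were 0.11 ± 0.19 in winners and -0.11 ± 0.19 in losers.

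dusp16 (NCBI gene 406523), a phosphatase that prefers JNK and p38, was the only measured member of its class and a weakly lit probe set. It read 3.93, 4.81 and 5.10 on the isolated arrays, 4.62, 5.02 and 5.64 on the mirror arrays, 5.15, 5.70 and 4.93 on the winner arrays and 5.69, 5.54 and 5.29 on the loser arrays. Losers lay above all isolated arrays, and mirror fighters and winners overlapped with both. The differences from isolated fish were 0.89 ± 0.34 in losers, 0.65 ± 0.34 in winners and 0.48 ± 0.34 in mirror fighters (limma adjusted p = 0.175, 0.313 and 1.00).

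Of the atypical members, dusp11 and dusp22a had negative differences from isolated fish in winners and losers, and dusp23b small positive ones. dusp11 (NCBI gene 550417), which in mammals acts on RNA ends rather than on kinases, read 6.13, 6.59 and 6.01 on the isolated arrays, 6.40, 6.54 and 5.96 on the mirror arrays, 5.56, 6.01 and 5.91 on the winner arrays and 5.91, 5.78 and 5.87 on the loser arrays. All real fighters lay below all isolated arrays, narrowly for winner array 2 and isolated array 3, with differences of -0.42 ± 0.20 in winners, -0.39 ± 0.20 in losers and -0.41 ± 0.17 over both (limma adjusted p = 0.276, 0.287 and 0.179). dusp22a (NCBI gene 436787), whose mammalian relative modulates JNK signalling, read 7.04, 6.96 and 7.04 on the isolated arrays and 7.13, 7.22 and 6.90 on the mirror arrays. It read 6.41, 6.52 and 7.31 on the winner arrays and 6.27, 6.66 and 6.88 on the loser arrays, so that losers lay below isolated fish while winner array 3 was the highest of all. The differences were -0.27 ± 0.24 in winners and -0.41 ± 0.24 in losers (limma adjusted p = 0.554 and 0.335).

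dusp23b (NCBI gene 436735), a small atypical phosphatase, was the member whose mirror fighter value differed most from isolated fish. It ranged from 6.64 to 7.22 in isolated fish, from 7.39 to 7.90 in mirror fighters, from 6.74 to 8.02 in winners and from 7.01 to 7.38 in losers. Mirror fighters did not overlap with isolated fish or losers, but the differences of 0.68 ± 0.32 from isolated fish and of -0.53 ± 0.32 for losers against mirror fighters did not pass (limma adjusted p = 1.00 and 0.401). Against isolated fish dusp23b stood at 0.19 ± 0.32 in winners and 0.15 ± 0.32 in losers (limma adjusted p = 0.77 and 0.82). These values became -0.23 without winner array 3 and -0.032 without isolated array 3.

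Counted over the family, 2 of the 12 probe sets, dusp5 and dusp2, were called higher in losers, where 0.258% of all probe sets were. Called lower were 0 of 12, where 0.31% of all were. The family was chosen with earlier results of these data known, so these counts are no independent evidence. In winners 0 of 12 were called by limma, where 0.187% of all were called higher. With an unadjusted p under 0.05 there were 4 of 12, where 19.6% of all probe sets had one. In mirror fighters against isolated fish 0 of 12 were called by limma and 0 had an unadjusted p under 0.05, where the shares of all probe sets were 0% and 3.83%. Between winners and losers both counts were again 0, where the shares of all were 0% and 4.14%.

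Separation without overlap was also counted. In winners 4 of 12 probe sets lay above all isolated arrays (10.6% of all did) and 1, dusp11, lay below (13.2%). In losers 5 lay above, namely dusp5, dusp2, dusp1, the dimmer dusp6 probe set and dusp16 (10.8%), and 2, dusp11 and dusp22a, lay below (15.3%). In mirror fighters 1 lay above, dusp23b (4.94%), and 0 below (5.78%).

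Against mirror fighters 0 of 12 were called by limma in winners, where 0.00645% of all were called higher. An unadjusted p under 0.05 was found for 6, where 16.8% of all had one, and of these 5 were higher and dusp11 lower. In losers 0 of 12 were called by limma, where 0.142% of all were called higher. Here 4 had an unadjusted p under 0.05, where 17.7% of all did, and of these 3 were higher and dusp11 lower. Without overlap, 6 probe sets lay above mirror fighters in winners (11%) and 0 below (11.7%). In losers 4 lay above (10.3%) and 3, the atypical members, lay below (14%). These 3 gaps were narrow. The highest loser and lowest mirror arrays read 7.38 and 7.39 for dusp23b, 6.88 and 6.90 for dusp22a, and 5.91 and 5.96 for dusp11.

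The typical and atypical members differed in the sign of their medians in winners and losers, but not in mirror fighters. The 9 typical probe sets had a median difference from isolated fish of 0.58 in winners, with 9 above 0, and of 0.52 in losers, with 7 above 0, the exceptions being dusp4 and a dusp7 probe set. The 3 atypical ones had medians of -0.27 and -0.39, with 1 of 3 above 0 in each. The medians of all tested probe sets were 0.01 and -0.01. In mirror fighters the typical median was 0.04 and the atypical median 0.07. Subtracting array medians or quantile normalization left each of the winner and loser counts as it was. Once the hybridization control level entered the fit, 8 of 9 typical and 3 of 3 atypical probe sets were above 0 in winners and in losers. These comparisons share the isolated arrays, and the classes were not tested against each other.

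That control level separated real fighters from the others without overlap, so it and the groups can be told apart only through the spread within groups. With it in the fit, dusp5 stood at 1.07 and dusp2 at 1.34 in losers against isolated fish, neither of them called (adjusted p = 0.478 and 0.436), and 0 of all probe sets passed. Within the isolated, mirror and winner groups the array with the brightest controls (9.50, 9.51 and 10.76) also had the highest dusp5 value (8.73, 8.89 and 9.63), and in mirror fighters and winners all 3 arrays ranked alike by both. Losers ran the other way: loser array 1 had the brightest controls of its group (10.62) and its lowest dusp5 value (9.48). For dusp2 the array with the brightest controls was not the highest in any group, though only just below it in losers. For dusp1 that array was the highest in isolated fish, the lowest in mirror fighters and winners, and in between in losers.

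**Figure D3:**
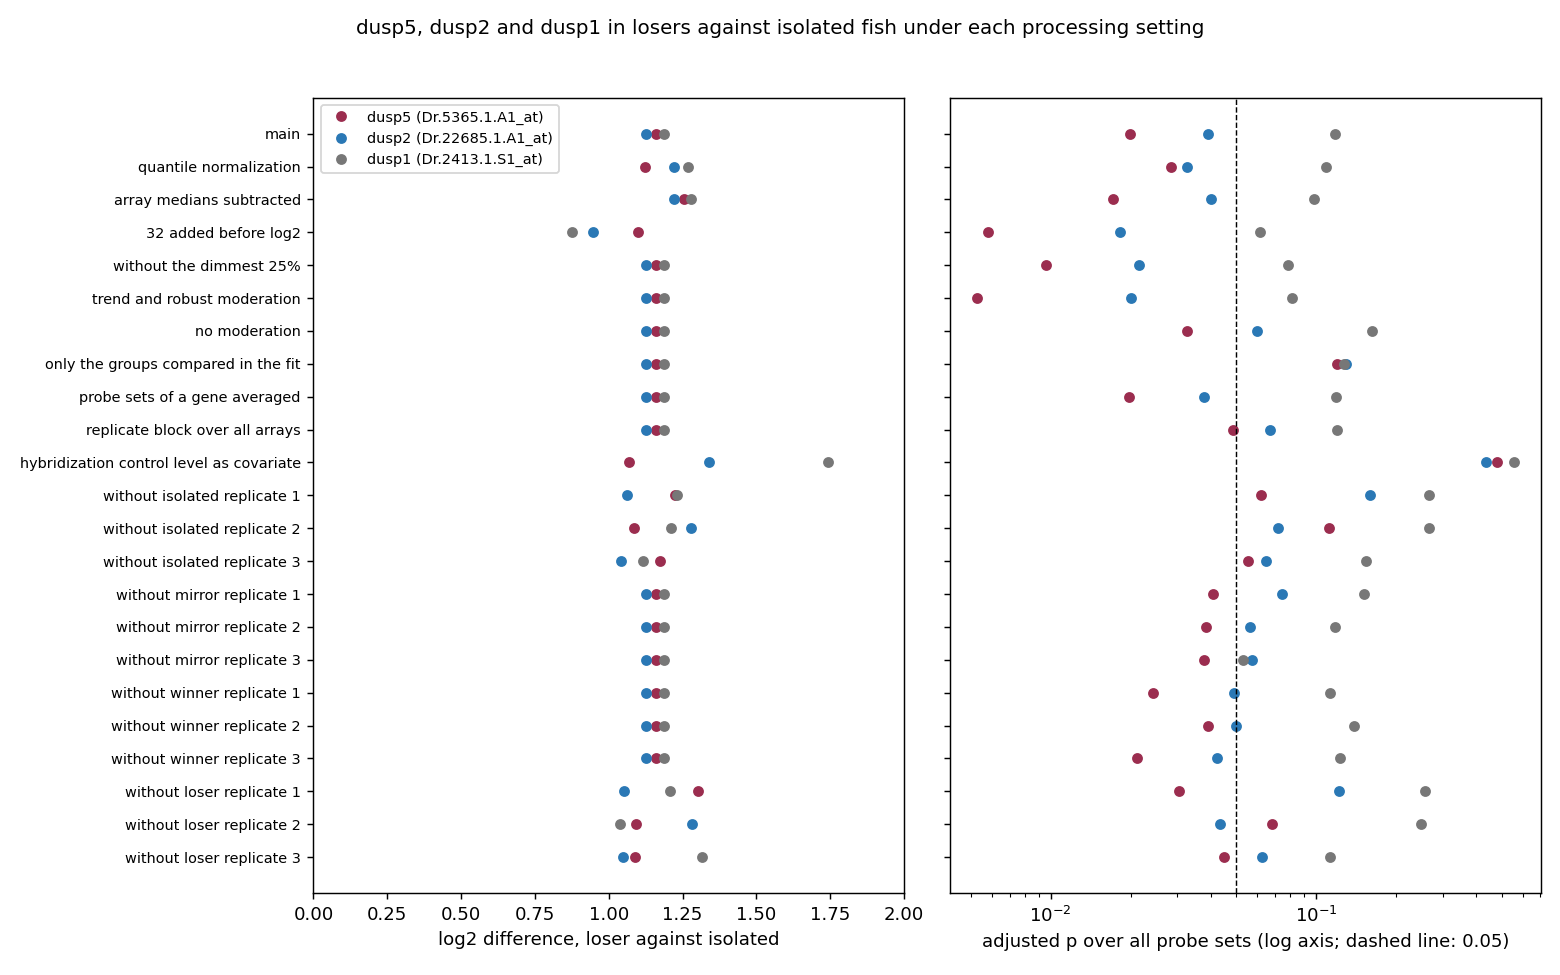
Loser minus isolated log2 difference (left axis) and its adjusted p on a log axis (right) for dusp5, dusp2 and dusp1 under the main setting and 22 alternatives (rows). Differences of dusp5 stay between 1.07 and 1.30 and those of dusp2 between 0.95 and 1.34, while adjusted p-values fall on both sides of the dashed line at 0.05.

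The loser calls of dusp5 and dusp2 depended on single arrays and on the choice of fit. Without any 1 array the differences stayed between 1.09 and 1.30 for dusp5 and between 1.04 and 1.28 for dusp2. dusp5 lost its call without isolated array 1 (adjusted p = 0.0621), isolated array 2 (0.112), isolated array 3 (0.0553) or loser array 2 (0.068). dusp2 lost its call without any 1 isolated or mirror array, loser array 1 (0.122) or loser array 3 (0.0628), and its highest adjusted p over these fits was 0.16, without isolated array 1. Of all 22 alternatives, 6 ended the loser call of dusp5 and 12 that of dusp2. With only the compared groups in the fit both were lost (limma adjusted p = 0.12 and 0.13). The dusp2 call was also lost without moderation (adjusted p = 0.0599) and with the replicate number as a block over all arrays (0.0669).

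The rest of the MAP kinase pathway was compared with the family, using lists of its layers with 1 probe set per gene. Apart from the immediate early factors given last, limma called 0 genes of these lists in winners, losers or mirror fighters against isolated fish. Of all probe sets, 0.187% were called higher in winners and 0% in mirror fighters. In losers 0.258% were called higher and 0.31% lower. At those shares lists of this length hold few calls or none, so the 0 does not set them apart. Of the kinases themselves 8 of 14 listed were measured, with medians of 0.05 in winners and -0.13 in losers, and the smallest F-test p belonged to the p38 kinase gene mapk12a (0.55 ± 0.36 in winners, 0.61 ± 0.36 in losers) and the ERK5 gene mapk7 (-0.15 ± 0.15 and -0.30 ± 0.15). The 12 measured MAP kinase kinases and their activators had medians of 0.03 and -0.05, led by map3k14a (-0.35 ± 0.14 and -0.37 ± 0.14) and map2k4a, an activator of JNK (-0.01 ± 0.15 and 0.36 ± 0.15). The 9 measured Ras genes and adaptors had medians of 0.00 and -0.08, with nras at -0.34 ± 0.13 and -0.53 ± 0.13 and hrasb at -0.05 ± 0.17 and -0.26 ± 0.17.

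Feedback inhibitors outside the dusp family had no called gene. Of 14 listed 6 were measured, 3 of them above 0 in winners and 3 in losers, with medians of -0.14 and 0.00. The Sprouty gene spry4 stood at 0.46 ± 0.40 in winners and 0.61 ± 0.40 in losers, and at -0.90 ± 0.40 in mirror fighters. The FGF receptor antagonist gene il17rd stood at -0.41 ± 0.17 in winners and -0.73 ± 0.17 in losers (limma adjusted p = 0.229 and 0.0797). Downstream kinases and factors, 19 of 30 measured, had medians of 0.22 and 0.05, with the AP-1 subunit gene jun at 0.79 ± 0.21 and 0.84 ± 0.21 (limma adjusted p = 0.121 and 0.0874) and the ETS factor gene etv5a at 0.72 ± 0.25 and 0.44 ± 0.25.

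Immediate early factors, which share their inducing signals with several typical dusp genes, were the list with called genes. Of 14 measured, jun among them, 8 were called higher in winners and 9 in losers, where 0.187% and 0.258% of all probe sets were. All 14 were above 0 in both groups. The medians were 1.30 and 1.70, against 0.35 and 0.36 for all 12 dusp probe sets. With 1 probe set per gene, as in the lists, the dusp medians were 0.39 in winners and 0.44 in losers. In mirror fighters 13 of the 14 were above 0, with a median of 0.49 and none called, while the dusp median was 0.06. The list was chosen with its behaviour in these samples known, so its counts are no independent evidence of direction. The genes called in losers were fosab, junba, egr1, egr2a, egr2b, egr4, npas4a, nr4a1 and btg2, at differences between 1.54 and 4.14. Those called in winners were the same without egr1.

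**Figure D4:**
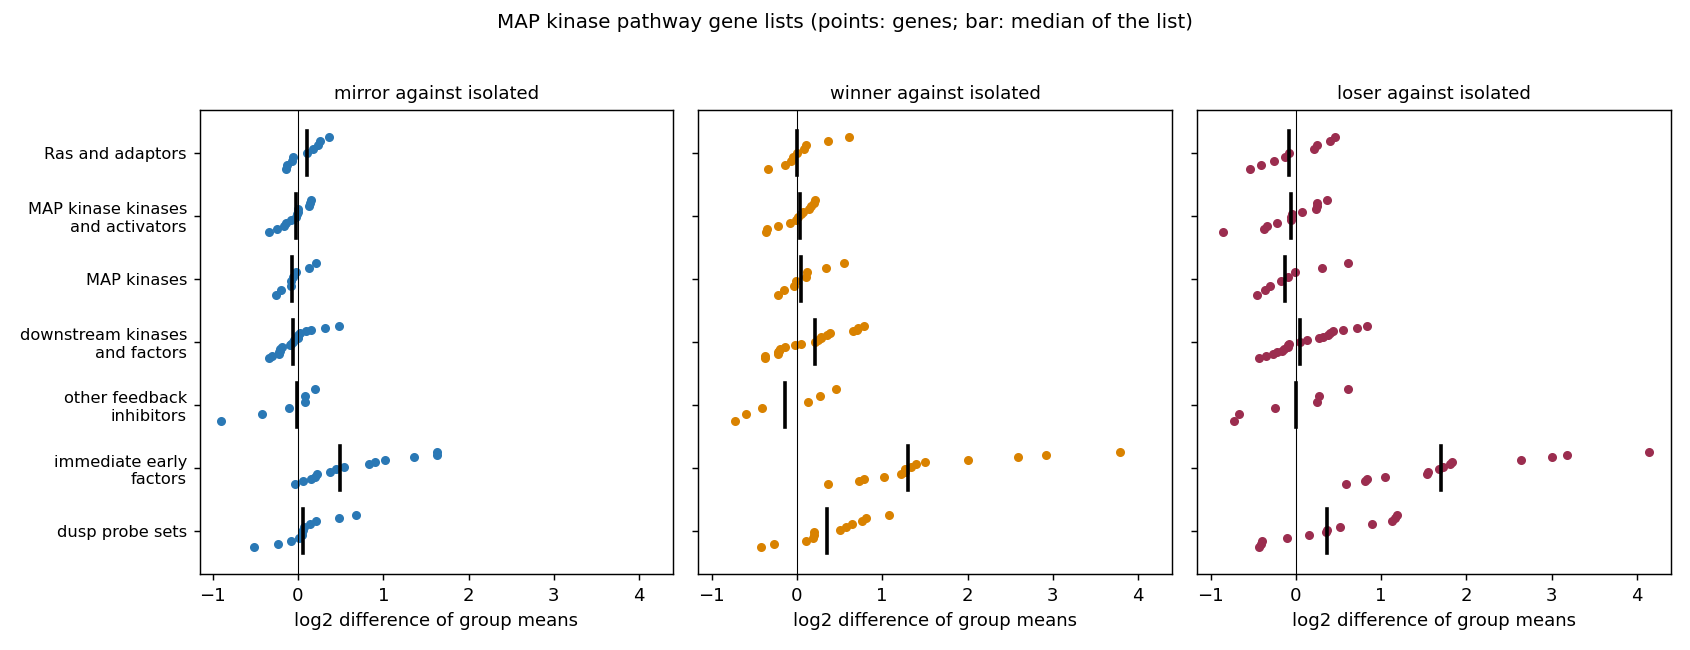
Log2 difference from isolated fish (horizontal axis) of the genes of 6 MAP kinase pathway lists and of the 12 dusp probe sets, in mirror fighters, winners and losers, with 1 point per gene or probe set and a bar at the median. The layers from Ras to downstream factors have medians between -0.13 and 0.22 in winners and losers. Medians in winners and losers are -0.14 and 0.00 for the other feedback inhibitors and 0.35 and 0.36 for the dusp probe sets. For the immediate early factors they are 1.30 and 1.70.

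The genes most like the leading members were taken by Pearson correlation over the 12 arrays, among 7110 other genes that were not dim. The arrays share the 4 groups, so these correlations are a description only. For dusp5 they were the AP-1 subunit gene junba (r = 0.96), wu:fj62d01 (0.94), the kinase gene pim1 (0.93) and tcima (0.93). For dusp2 they were the stress gene gadd45bb, the calcium pump gene atp2a1 and the cyclin gene ccnl1b (each 0.91), and the antiproliferative gene btg2 (0.90). For dusp1 they were sgsm3 (0.88), the cytokine signalling inhibitor gene socs3a, the microRNA processing gene dgcr8 and ropn1l (each 0.86).

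After removal of the group means the same correlations with dusp5 were 0.50 for junba, 0.48 for wu:fj62d01, 0.20 for pim1 and 0.23 for tcima. For dusp2 they were 0.54 for gadd45bb, 0.61 for atp2a1, 0.60 for ccnl1b and 0.15 for btg2. For dusp1 they were 0.84 for sgsm3, 0.51 for socs3a, 0.67 for dgcr8 and 0.88 for ropn1l. The genes were chosen on the same arrays, so these values are no separate support. Mirror array 3, where dusp1 was lowest, is one of these arrays, and its share in the values was not tested. The genes nearest to dusp5 read, against isolated fish, between 1.08 and 1.71 higher in winners and between 1.29 and 2.27 higher in losers. They were chosen for their likeness to dusp5 on these arrays, so higher values in both groups follow from the choice.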

How the data were processed

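The deposited table gives, for each array, a linear intensity of every probe set, and all 12 value columns were used. The submitters' processing notes name Partek 6.6 without its role, and the summary and normalization methods are not given in the sources used here. The lowest value is a floor of 1. Amplification and biotin labelling started from 100 ng of total RNA, per the labels' protocols. Series design and extraction protocol name different RNA extractions.

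Here the values were put on a log2 scale with no offset, 115 control probe sets were left out, and limma 3.58.1 under R 4.3.3 fitted 4 group means (8 residual and 2.55 prior degrees of freedom). There were 8 contrasts and an F-test, each adjusted by Benjamini-Hochberg over 15502 probe sets. All p-values are two-sided and intervals are at 95%. The number of arrays limits precision. At most 0.11% of values were identical in a pair of arrays. The fit was tested on simulated data with independent noise and no shift of whole arrays, which cannot speak to the spiked control differences.

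Values per array were printed for called members and then by F-test p up to 10 probe sets, with the rest as ranges. From each pathway list called genes and the 2 with the smallest F-test p were named (the brightest probe set per gene), and for 3 members the 4 genes of highest correlation. Members and lists were chosen with earlier results of these data known. Deviations of winner and loser arrays of the same number from their group means correlated at 0.112, 0.111 and 0.233. Each was over 0.1, so these numbers were taken to pair them, and no other pair of groups met that rule throughout. The labels do not state this pairing, and arrays of unlike number were not compared. Single values elsewhere reached 0.211 (isolated and mirror array 3) and 0.184 (isolated and winner array 1). The pairing is therefore an assumption, and the main fit did not use it, also for the values over winners and losers together. With the replicate block over all arrays, dusp5 over both groups was not called against mirror fighters (limma adjusted p = 0.0776) but kept its call against isolated fish. In that fit dusp2 over both groups was not called against isolated fish (limma adjusted p = 0.0505). Alternatives were other normalizations, offset, filter, moderation, fits of the compared groups alone, averaged probe sets, a replicate block, a control covariate and leaving out each array. Protein and promoter sequences were not used here.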

Additional observations from a re-analysis of the deposited data

Results flagged for a closer look

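In the main setting dusp5 passed the test of real fighters against mirror fighters. The mean of winners and losers exceeded mirror fighters by a log2 difference of 0.85, a test of the difference between their responses to the same isolated baseline (limma adjusted p = 0.0484). All 6 real-fight arrays were above all 3 mirror arrays. Over 22 alternative settings the difference ranged from 0.75 to 0.92 and the adjusted p from 0.0178 to 0.56, and the call was lost in 16 of them. The value of 0.56 came with the hybridization control covariate. Losers alone and winners alone did not pass against mirror fighters (limma adjusted p = 0.0614 and 0.153). Spiked controls separated the same arrays, and their part was not tested beyond the covariate fit.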

How the results depend on the processing

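The number of dusp probe sets called stayed at 0 for winners against isolated fish, mirror fighters against isolated fish, winners against mirror fighters and winners against losers under every alternative. For the other comparisons it started at 2 for losers against isolated fish, 0 for losers against mirror fighters, 1 for the winner and loser mean against mirror fighters, 2 for that mean against isolated fish and 1 for the F-test. Quantile normalization gave 0 for the mean against mirror fighters and 0 for the F-test, and subtracted array medians gave 0 for the mean against mirror fighters. Adding 32 before log2 gave 1 for losers against mirror fighters, 3 for the mean against mirror fighters, 3 for the mean against isolated fish and 2 for the F-test. Without the dimmest 25% these were 1, 2, 3 and 2, and trend and robust moderation gave 1 for losers against mirror fighters, 3 for the mean against isolated fish and 2 for the F-test. No moderation gave 1 for losers against isolated fish and 0 for the F-test. With only the groups compared in the fit, 0 were called in losers, 0 for the mean against mirror fighters and 0 for the mean against isolated fish, and the hybridization control covariate gave 0 for these and 0 for the F-test. The replicate block over all arrays gave 1 in losers, 0 and 1 for the mean against mirror and isolated fish and 0 for the F-test. The causes were not tested. Leaving out each array in turn gave 0 to 2 in losers against isolated fish, 0 to 1 and 0 to 3 for the mean against mirror and isolated fish, 0 to 1 for the F-test and 0 to 0 elsewhere. Calls over all probe sets moved as well. For losers against mirror fighters, the mean against them and the F-test they numbered 27, 65 and 43 in the main setting. With 32 added they were 53, 352 and 172, and without the dimmest 25% 71, 316 and 164. Without 1 array they ranged over 0 to 27, 0 to 109 and 17 to 48.

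With the replicate block on the winner and loser arrays alone, paired by number, the winner minus loser difference was -0.35 ± 0.22 (SE) for dusp5 and -0.37 ± 0.13 for dusp2. In that fit 0 dusp probe sets were called, and the block changed no other winner and loser call.

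Of 1148 alternative values of 52 printed differences, 47 lost a call, 11 gained one and 15 changed sign, none of the last from a called value. With the hybridization control covariate dusp4 in losers against isolated fish became 1.17, the dimmer dusp7 probe set in winners -0.047, dusp11 0.032 in winners, 0.0085 in losers and 0.020 over both, dusp22a 0.88 and 0.61 in winners and losers, and dusp23b in losers against mirror fighters 0.31. Averaging probe sets gave dusp7 a loser value of 0.20, and its dimmer probe set ranged from -0.29 to 0.028 with 1 array left out, the latter without loser array 1. With 1 array left out, dusp1 ranged from -0.34 to 0.41 in mirror fighters against isolated fish, the latter without mirror array 3. Between winners and losers it ranged from -0.26 to 0.088, and was above 0 without winner array 1 (0.088) or loser array 2 (0.039). With 1 array left out, dusp23b ranged from -0.23 to 0.41 in winners and from -0.032 to 0.26 in losers against isolated fish. Over all probe sets, calls in losers against isolated fish numbered 88, and 21 to 122 without 1 array and 0 to 317 under the other settings. Those over both real-fight groups numbered 258, and 22 to 636 and 0 to 1062.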
